A study of Homo sapiens with 4 samples.

Results

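This account covers 10 genes of the glutathione and thioredoxin systems, GCLC, GCLM, GSR, GPX1, GPX2, GPX4, TXN, TXNRD1, SRXN1 and SLC7A11, out of 16371 genes in the deposited expression table. They were chosen by name, with earlier results of these data known. The values of all transcripts listed under the gene ID of each name were summed. The data are RNA sequencing of tumor cluster cells of A549, a line from a human lung adenocarcinoma that is the background of every library. The control libraries (shMock, 2 libraries, genotype labelled wild type) came from cells with a control hairpin construct, and the knockdown libraries (shDUSP23, 2 libraries, genotype labelled DUSP23 knockdown) from cells with a short hairpin RNA against DUSP23, an atypical dual-specificity phosphatase gene. No source used here gives the number of hairpins or clones, the time in culture or what SUS stands for in the titles. Nor do the labels say whether replicates came from separate cultures, so p-values cover only the spread among these libraries, which may be technical.

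Glutathione and thioredoxin are the main thiol reductants of the cell. Cystine enters through the exchanger whose light chain is SLC7A11, is reduced to cysteine, and is built into glutathione by glutamate-cysteine ligase, made of GCLC and GCLM, and then by glutathione synthetase. Glutathione peroxidases spend glutathione on peroxides and glutathione reductase (GSR) restores it with NADPH, while thioredoxin (TXN) reduces peroxiredoxins and other proteins and is itself reduced by thioredoxin reductase (TXNRD1). GPX1, GPX2, GPX4 and TXNRD1 are selenoproteins. Most of these genes are known targets of the transcription factor NRF2, and A549 cells lack normal KEAP1, the protein that keeps NRF2 low, so the pathway is known to be highly active in this line.

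Of the 10 genes 6 fell in shDUSP23, and the other 4 did not pass the test. The glutathione peroxidase gene GPX2 fell furthest, from 669 ± 158 to 222 ± 40.1 FPKM (group means ± SD with n = 2, as throughout), and the cystine transporter gene SLC7A11 followed, from 47.9 ± 1.13 to 24.3 ± 0.678 FPKM. GCLC, GCLM, TXN and GSR fell by smaller amounts. GPX1, GPX4, TXNRD1 and SRXN1 had group means in shDUSP23 between 1.04 and 1.21 times those in shMock. FPKM, which scales fragments by the length of the transcript and the size of the library, is the unit of the table, and the threshold for a call was 0.05 on the p of limma (two-sided, on log2(FPKM + 0.5)) after Benjamini-Hochberg adjustment. Among all 13691 genes tested with a mean of at least 1 FPKM, 45.3% were called, 22.2% as lower and 23.1% as higher. The median log2 fold change was -0.47 over the 10 genes and 0.03 over all tested genes. Because the 10 were chosen with earlier results known, this contrast is a description only. All 10 genes passed the filter on low values, with levels far above it.

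Each library rested on 21273200 to 42169300 fragments, as recovered from the steps between low FPKM values, and the 10 genes had 1809 to 53842 recovered fragments per library. DUSP23 itself was at 29.96 and 35.9 FPKM in shMock and at 1.71 and 2.71 FPKM in shDUSP23 (log2 fold change -3.64, SE 0.22; limma, Benjamini-Hochberg adjusted p = 3.12e-05). Transcripts of the mitochondrial genome took 12.3% and 13.1% of all FPKM in shMock and 8.12% and 7.97% in shDUSP23, and their part in the results below was not tested. Because the summed FPKM was also lower in shDUSP23, all libraries were in addition scaled to equal sums, which moved the median of all tested genes to 0.37 and the share of higher genes among those called from 51.0% to 76.2%. Markers of lung adenocarcinoma epithelium were measured for 6 of 9 genes, led by KRT8 and KRT18. Their summed levels were 2113 to 2156 FPKM in shMock and 1637 to 1718 FPKM in shDUSP23. CDH1 fell from 22.4 and 21.5 FPKM to 6.20 and 8.14 FPKM, and EPCAM (log2 fold change -0.71) and KRT18 (-0.44) were also called lower. KRT8 (-0.26), KRT19 (0.10) and NAPSA (0.37) did not pass the test. NKX2-1, SFTPB and SFTPC were without a listed value. Of 6 leukocyte markers CD68 and CD14 had values. CD68, a lysosomal protein gene also active outside leukocytes, was at 24.4 and 23.5 FPKM in shMock and at 94.9 and 131 FPKM in shDUSP23, and CD14 was at 4.68 and 8.0 against 0.98 and 1.0 FPKM. PTPRC, which defines leukocytes, had no listed value. COL1A1 was the 1 fibroblast marker of 4 with a value, at 2.48 to 4.66 FPKM over the libraries, and 0 of 4 endothelial markers had one. Detoxification genes known to be high in A549 (AKR1B10, AKR1C1, ALDH1A1 and NQO1) were all called lower, with a summed level of 5418 and 6741 FPKM in shMock and 1415 and 1507 FPKM in shDUSP23.

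**Figure D1:**
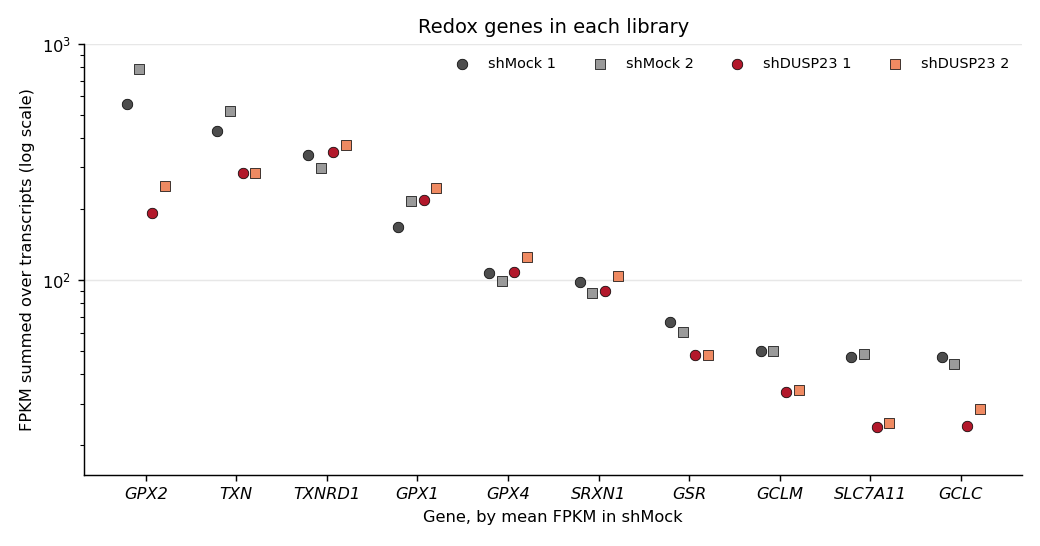
FPKM summed over transcripts (log scale) of the 10 redox genes in each library, ordered by the mean in shMock; circles are replicate 1 and squares replicate 2, in grey for shMock and red for shDUSP23. GPX2 is highest in shMock at 557 and 780.0 FPKM and sits at 193 and 250.2 FPKM in shDUSP23, while the 4 points of SRXN1 lie between 88.4 and 104 FPKM.

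Among the members that bring in cystine and build glutathione, the transporter gene fell furthest. SLC7A11 (ENSG00000151012, chromosome 4 of GRCh38, 138164097 to 138242349, minus strand) was at 47.1 and 48.7 FPKM in the shMock libraries and at 23.8 and 24.8 FPKM in the shDUSP23 libraries. Both knockdown libraries lay below both controls, 1.97 times lower by the group means. Its log2 fold change was -0.96 with an SE of 0.12 (limma, adjusted p = 0.000508). The partner chain of the exchanger, SLC3A2, which also serves other amino acid transporters and was singled out after its values were seen, rose (log2 fold change 0.80, adjusted p = 0.00121), from 235 and 202 FPKM to 391 and 370.2 FPKM. The ratio of SLC7A11 to SLC3A2 within a library, which a single scaling factor per library cannot change, was 0.200 and 0.242 in shMock and 0.0610 and 0.0670 in shDUSP23. An antisense gene, SLC7A11-AS1, overlaps SLC7A11 in GENCODE release 29, and with the strandedness of the libraries not given, reads of the pair cannot be told apart.

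Glutamate-cysteine ligase makes the first and rate-limiting bond of glutathione, and both of its subunit genes fell. GCLC (ENSG00000001084, chromosome 6, 53497341 to 53548206, minus strand), the catalytic subunit, was at 47.5 and 44.0 FPKM in shMock and at 24.2 and 28.4 FPKM in shDUSP23. GCLM (ENSG00000023909, chromosome 1, 93885199 to 93909456, minus strand), the modifier subunit that makes the enzyme more efficient, was at 49.9 and 50.1 FPKM in shMock and at 33.5 and 34.4 FPKM in shDUSP23. In both genes the knockdown libraries lay below the controls with no overlap, as they did in 36.2% of all tested genes. GCLC had a log2 fold change of -0.79 with an SE of 0.14 (limma, adjusted p = 0.00209), and that of GCLM was -0.55 (SE 0.12; adjusted p = 0.00582). The catalytic and modifier transcripts stood at a GCLC to GCLM ratio of 0.951 and 0.878 in shMock and 0.724 and 0.826 in shDUSP23. GCLM lost its call when libraries were scaled to equal sums (log2 fold change -0.22, limma adjusted p = 0.192), and GCLC kept it (-0.46, adjusted p = 0.0317).

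Glutathione reductase, which returns oxidized glutathione to its reduced form, had the smallest fall of the 6 on the deposited scale. GSR (ENSG00000104687, chromosome 8, 30678066 to 30727846, minus strand) was at 66.2 and 60.5 FPKM in shMock and at 48.4 and 48.1 FPKM in shDUSP23, 1.31 times lower by the group means with no overlap. The log2 fold change was -0.39 with an SE of 0.12 (limma, adjusted p = 0.0269). This call ended with equal sums (-0.06, adjusted p = 0.753), with quantile normalization (adjusted p = 0.0688), without the intensity trend (0.0836), and when any library was left out. With GC content and length corrected for, GSR was called lower at -0.48 (adjusted p = 0.00607), a larger fall than those of GCLM (-0.33) and TXN (-0.28) on that scale. With a library left out the adjusted p was 0.143 without shMock replicate 1, 0.0647 without shMock replicate 2, 0.0596 without shDUSP23 replicate 1 and 0.0692 without shDUSP23 replicate 2.

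The 3 glutathione peroxidase genes did not move alike. GPX2 (ENSG00000176153, chromosome 14, 64939153 to 64942905, minus strand), an epithelial cytosolic peroxidase, was at 557 and 780.0 FPKM in shMock and at 193 and 250.2 FPKM in shDUSP23. The 2 controls differed by more than any other pair of replicates among the 10 genes, yet the higher knockdown library was still below the lower control. The log2 fold change was -1.58 with an SE of 0.18 (limma, adjusted p = 0.00035), for a 3.01-fold lower group mean. GPX1 (ENSG00000233276, chromosome 3, 49357176 to 49358353, minus strand), the peroxidase found in nearly all cells, was at 167 and 217 FPKM in shMock and at 218 and 245 FPKM in shDUSP23. GPX4 (ENSG00000167468, chromosome 19, 1103994 to 1106791, plus strand), which reduces lipid peroxides in membranes and so holds back ferroptosis, was at 107 and 99.2 FPKM in shMock and at 109 and 126 FPKM in shDUSP23. In both the knockdown libraries lay just above the controls, as in 39.3% of all tested genes, and neither passed the test. Their log2 fold changes were 0.28 (95% interval -0.05 to 0.61; limma, Benjamini-Hochberg adjusted p = 0.149) and 0.18 (95% interval -0.10 to 0.46; adjusted p = 0.255). With equal sums both were called higher, at 0.61 (adjusted p = 0.00427) and 0.52 (0.0104), and with quantile normalization at 0.56 (0.00789) and 0.33 (0.0466). GPX1 was also called higher without shMock replicate 2 (0.46, adjusted p = 0.0415).

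The make-up of the peroxidase transcripts changed with these moves. GPX2 held 67.0% and 71.2% of the summed FPKM of the 3 genes in shMock and 37.2% and 40.3% in shDUSP23. GPX1 held 20.1% and 19.8% of that sum in shMock and 42.0% and 39.4% in shDUSP23. The ratio of GPX2 to GPX1 was 3.33 and 3.60 in shMock and 0.886 and 1.02 in shDUSP23, and that of GPX2 to GPX4 was 5.21 and 7.86 against 1.78 and 1.99. An exact two-sided permutation test of the log2 GPX2 to GPX1 ratio gave p = 0.333, the smallest value that 2 libraries against 2 can give. The same p came out for the other 6 ratios computed, including GPX2 to GPX4. A ratio shows that the pair changed unequally and not which of them moved. GPX2 lies within the span of CHURC1 on the opposite strand, and CHURC1, looked up for that reason, was at 60.6 and 59.1 FPKM in shMock and at 52.4 and 50.7 FPKM in shDUSP23 without passing the test. GPX1 and TXN have processed pseudogenes, and no source used here says how the authors' counting divided reads among such copies.

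**Figure D2:**
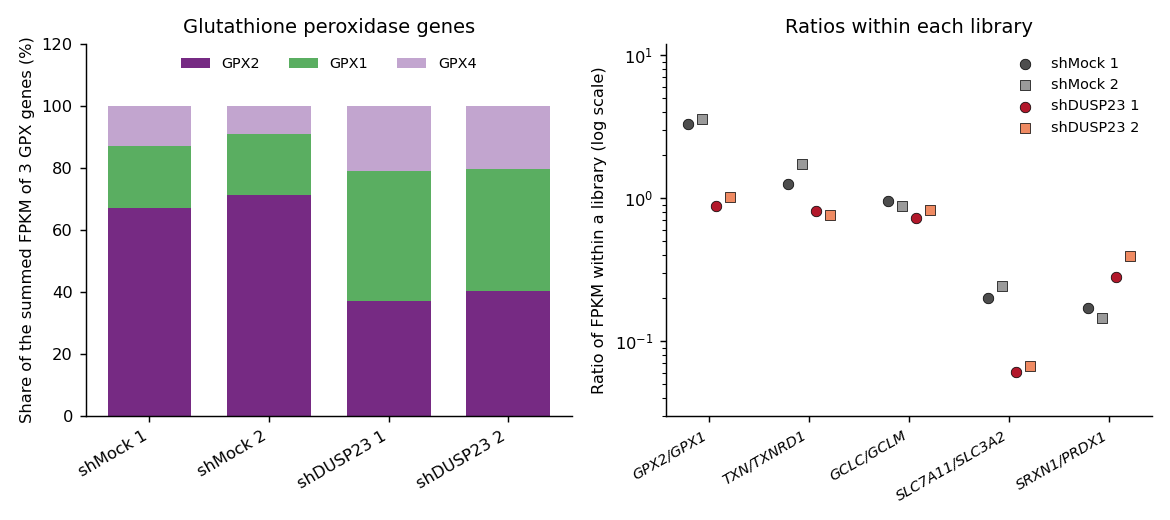
Left, share (%) of GPX2, GPX1 and GPX4 in their summed FPKM in each library; right, ratios of FPKM within each library (log scale) for 5 gene pairs, with circles for replicate 1 and squares for replicate 2. GPX2 falls from 67.0% and 71.2% of the peroxidase sum in shMock to 37.2% and 40.3% in shDUSP23, and the ratio of SRXN1 to PRDX1 is the 1 of the 5 that is higher in both shDUSP23 libraries.

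Thioredoxin fell while its reductase did not. TXN (ENSG00000136810, chromosome 9, 110243810 to 110256507, minus strand) was at 426 and 521 FPKM in shMock and at 283 and 284 FPKM in shDUSP23. The knockdown libraries were nearly identical and lay below both controls. Its log2 fold change was -0.73 with an SE of 0.13 (limma, adjusted p = 0.00248), and it was called lower with equal sums too (-0.40, adjusted p = 0.0179). A per-library correction for GC content and length (-0.28, adjusted p = 0.0579) and quantile normalization (-0.23, adjusted p = 0.0968) each ended the call. TXNRD1 (ENSG00000198431, chromosome 12, 104215779 to 104350307, plus strand), the cytosolic thioredoxin reductase, was at 339 and 299.5 FPKM in shMock and at 349 and 373 FPKM in shDUSP23. Its log2 fold change of 0.18 (95% interval -0.09 to 0.45) did not pass (limma, Benjamini-Hochberg adjusted p = 0.249). Equal sums gave 0.51 (adjusted p = 0.00809) and quantile normalization 0.74 (adjusted p = 0.00202), both called higher. EID3 lies within TXNRD1 on the same strand and AC089983.1 on the opposite one, and AL033397.2 lies opposite GCLC, so some of their reads may be shared. The ratio of TXN to TXNRD1 was 1.26 and 1.74 in shMock and 0.813 and 0.762 in shDUSP23.

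Sulfiredoxin repairs peroxiredoxins that were over-oxidized at their catalytic cysteine, and its gene had the smallest log2 fold change of the 10 on the deposited scale. SRXN1 (ENSG00000271303, chromosome 20, 646615 to 653200, minus strand) was at 98.2 and 88.4 FPKM in shMock and at 90.0 and 104 FPKM in shDUSP23, and the groups overlapped. The log2 fold change was 0.05 (95% interval -0.23 to 0.34; limma, Benjamini-Hochberg adjusted p = 0.755). Its sign depended on the scaling, with 0.39 under equal sums (adjusted p = 0.0409, called higher) and -0.16 with GC content and length corrected for (adjusted p = 0.238). PRDX1, a cytosolic peroxiredoxin that sulfiredoxin repairs and that thioredoxin reduces, fell from 577 and 609.7 FPKM to 318 and 263 FPKM (log2 fold change -1.03, limma adjusted p = 0.000492). The SRXN1 to PRDX1 ratio was 0.170 and 0.145 in shMock and 0.283 and 0.395 in shDUSP23, and that of TXN to PRDX1 was 0.739 and 0.854 against 0.891 and 1.08. Another gene, AL121758.1, overlaps SRXN1 on the same strand in GENCODE release 29.

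How many of the 10 genes passed, and in which direction, depended on how the libraries were scaled. On the deposited scale 0 of the 10 were called higher and 6 lower by limma. The counts were the same at an unadjusted p under 0.05 and by limma-voom on the recovered fragments. Limma-voom called 24.5% of all genes it tested higher and 24.6% lower. The share of all genes at the unadjusted threshold was not counted, here or for the lists below. With equal sums 4 were called higher (GPX1, GPX4, TXNRD1 and SRXN1) and 4 lower (GPX2, SLC7A11, GCLC and TXN), where 35.9% of all tested genes were called higher and 11.3% lower. With quantile normalization 3 were called higher and 4 lower, where 44.2% of all genes were called, 22.1% and 22.2% in these directions. With GC content and length corrected for, 0 were called higher and 5 lower, where 21.8% and 22.6% were. GPX2, SLC7A11 and GCLC were called lower in the deposited scale and in each of the 18 alternatives run. The members called lower on the deposited scale and the others differed in GC content, with overlap. Those that did not pass were GPX1 (64.2%), GPX4 (61.7%), SRXN1 (53.6%) and TXNRD1 (44.7%). Those called lower were GPX2 (54.7%), GSR (48.8%), TXN (42.8%), GCLC (42.5%), GCLM (40.6%) and SLC7A11 (35.6%). All of those called lower but GPX2 were at 35.6% to 48.8%, and all of the others but TXNRD1 were at 53.6% to 64.2%. The part of GC content in this split was not tested beyond the correction above.

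**Figure D3:**
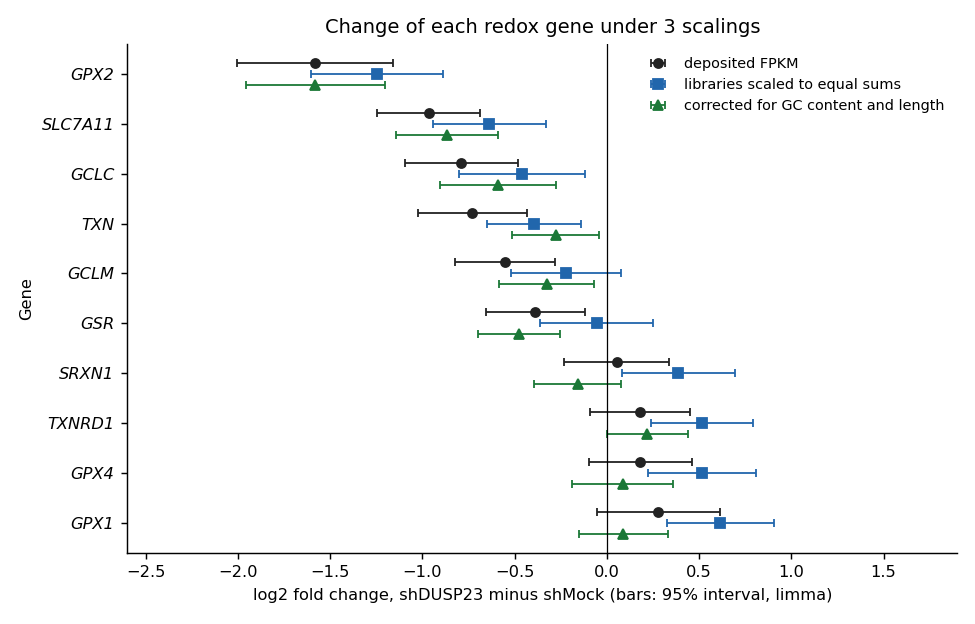
Log2 fold change of shDUSP23 minus shMock with its 95% interval from limma for each redox gene, on the deposited FPKM (circles), with libraries scaled to equal sums (squares) and corrected for GC content and length (triangles). GPX2, SLC7A11 and GCLC lie left of 0 under all 3, and SRXN1 lies at 0.05, 0.39 and -0.16.

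The order of the 10 genes by level also differed between the groups. In shMock the order ran GPX2, TXN, TXNRD1, GPX1, GPX4, SRXN1, GSR, GCLM, SLC7A11 and GCLC. In shDUSP23 TXNRD1 came first at 361 ± 17.2 FPKM, followed by TXN at 284 ± 0.534 FPKM, GPX1 at 232 ± 18.7 FPKM and GPX2 at 222 ± 40.1 FPKM. GPX1 and GPX2 overlapped there, so their order is not set by these libraries. SLC7A11 and GCLC overlapped in both groups. GPX4 and SRXN1 were adjacent in both groups, and in shMock the lower GPX4 library (99.2 FPKM) was close to the higher SRXN1 library (98.2 FPKM). At the lower end, GCLM was above GCLC and SLC7A11 in every library.

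The genes that fell and those that did not were then set beside a sequence feature of their promoters. NRF2 pairs with small MAF proteins and binds the antioxidant response element, whose core was searched as TGACNNNGC on both strands, from 250 bases before to 50 bases after the start site. The RefSeq promoter table (GRCh38.p14) matched 8 of the 10 genes, with 11 windows. No window was matched to SLC7A11 or GSR, which both fell, so their promoters were not searched. The core was found in windows of GCLM, GPX2 and TXNRD1, 4 of the 11 windows (1 each of GCLM and GPX2 and both of TXNRD1), against 13.3% of all 35116 windows of the table. The AP-1 site TGANTCA, which can overlap the element, was found in 0 of the 11 windows and in 7.71% of all. A match of each gene is shown because 2 of the 3 genes fell and 1 did not, with the 9 bases of the core in capitals and each sequence written 5′ to 3′ on the strand of its gene. In the 3 matches shown the core reads on the opposite strand. The other window of TXNRD1 has further matches that are not shown. Among them is a core 99 to 91 bases before its start site that reads on the strand of the gene.
GCLM, chr1:93909446-93909474, minus strand, core 34 to 26 bases before the start site: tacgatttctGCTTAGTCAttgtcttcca
GPX2, chr14:64942849-64942877, minus strand, core 122 to 114 bases before the start site: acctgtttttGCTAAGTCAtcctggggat
TXNRD1, chr12:104286920-104286948, plus strand, core 102 to 94 bases before the start site: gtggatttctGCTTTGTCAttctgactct

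The first of these belongs to a gene at a log2 fold change of -0.55, the second to one at -1.58 and the third to one at 0.18. A match is a description of letters and not a measured site, and no match in the other windows says only that the core is not in that stretch.

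The table gave values per transcript, and the 10 genes had 47 listed transcripts, of which 39 were tested as features of their own across 37453 transcripts. At that level limma called 2 lower and 0 higher, where 4.15% of all tested transcripts were called, 2.45% lower and 1.7% higher. At an unadjusted p under 0.05 the counts were 12 lower and 0 higher. The share of all transcripts at that threshold was not counted, so these counts cannot be judged against it. The 2 called transcripts were GPX2-201, which held 92.8% to 94.5% of the GPX2 total in each library and went from 527 and 737 FPKM to 179 and 235 FPKM (log2 fold change -1.60, limma adjusted p = 0.0434), and SLC7A11-201, which went from 46.2 and 47.9 FPKM to 22.1 and 24.8 FPKM (-0.99, adjusted p = 0.0397). TXN and SRXN1 had 1 listed transcript each, so their transcript and gene values are the same. TXN-202 missed the threshold among transcripts (adjusted p = 0.0611).

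In the other genes no transcript was called, and differences among the transcripts of a gene were not tested. GCLC-212, the most abundant transcript of GCLC, was at 13.6 and 13.1 FPKM in shMock and at 9.08 and 14.2 FPKM in shDUSP23, and the groups overlapped. GCLC-213 was at 10.3 and 11.8 against 6.80 and 4.92 FPKM, and GCLC-214 at 7.64 and 7.08 against 2.97 and 2.20 FPKM. Limma gave an adjusted p of 0.632 for GCLC-212, 0.117 for GCLC-213 and 0.0687 for GCLC-214. GCLC-212 made up 28.5% and 29.8% of the gene total in shMock and 37.5% and 50.1% in shDUSP23. GCLM-201, the main coding transcript, was at 23.2 and 25.9 FPKM in shMock and at 13.9 and 19.2 FPKM in shDUSP23. GCLM-203, annotated as a processed transcript with no coding sequence, held 36.7% and 37.7% of the GCLM total in shMock and 41.4% and 35.2% in shDUSP23. GSR-201 carried 82.4% to 87.1% of GSR, at 57.7 and 52.5 FPKM against 41.6 and 39.6 FPKM. GPX1-202 carried 96.6% to 98.7% of GPX1 and GPX4-210 carried 89.6% to 94.6% of GPX4, so the values of these genes are close to those of 1 transcript. The minor transcripts were uneven between replicates. GCLC-207 was at 6.58 and 4.36 against 0.576 and 5.56 FPKM, GCLC-210 at 5.86 and 3.01 against 1.94 and 0.214 FPKM, and GCLM-204 at 8.39 and 5.32 against 5.66 and 3.08 FPKM. GSR-203 was listed at 4.17 and 0 against 5.76 and 0.674 FPKM, and GSR-206 at 3.84 and 7.40 against 0 and 1.97 FPKM. The 3 main transcripts of TXNRD1 differed among themselves. TXNRD1-205 was at 124 and 139 FPKM in shMock and at 131 and 123 FPKM in shDUSP23, TXNRD1-214 at 91.7 and 81.3 against 102 and 131 FPKM, and TXNRD1-206 at 63.9 and 37.7 against 39.8 and 45.8 FPKM. How the fragments of a gene were divided among such overlapping transcripts is an estimate by the authors' quantifier, and the replicates of TXNRD1-206 in shMock lay further apart than the groups.

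**Figure D4:**
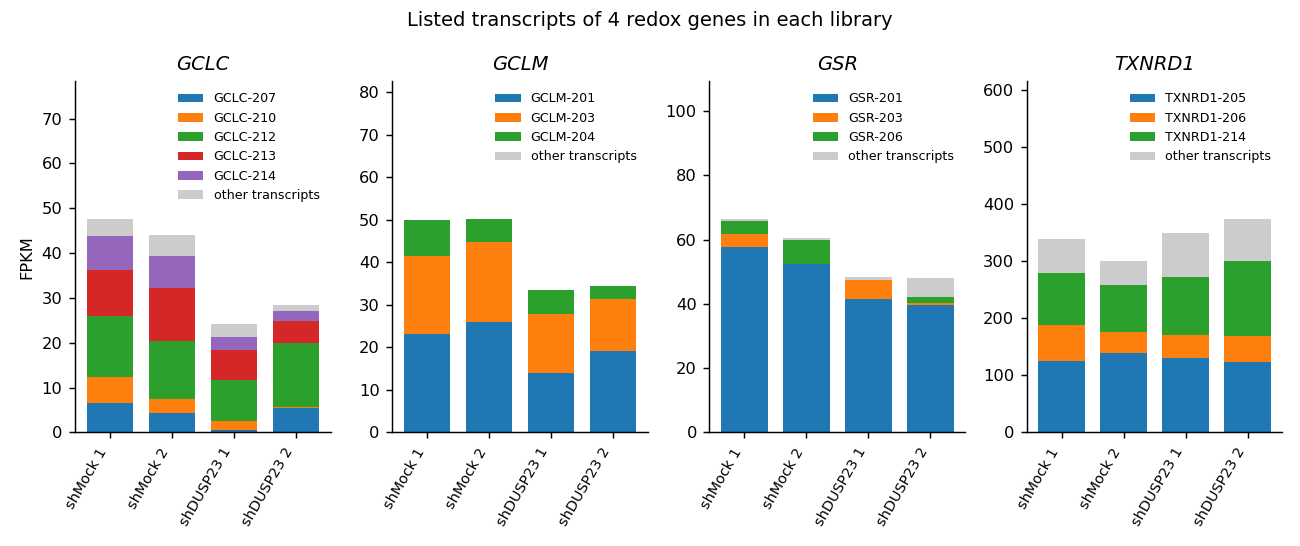
FPKM of the listed transcripts of GCLC, GCLM, GSR and TXNRD1 in each library, stacked; transcripts with at least 10% of the gene total in any library are coloured and the rest are grey. The GCLC-212 bar stays between 9.08 and 14.2 FPKM in all 4 libraries while GCLC-214 goes from 7.64 and 7.08 FPKM in shMock to 2.97 and 2.20 FPKM in shDUSP23.

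Beside the 10 genes stood 113 other tested genes of the same pathways, in 12 lists, of which 10 are described here. Of these 21 rose and 40 fell (37 and 28 with equal sums), with a median log2 fold change of -0.16. Over all tested genes 23.1% were called higher and 22.2% lower (35.9% and 11.3% with equal sums), and the counts of each list are to be read against these shares. In the list of cystine and cysteine supply 5 rose and 2 fell of 9 tested (6 and 1 with equal sums; median 0.80). CTH, which releases cysteine from cystathionine in the transsulfuration route, rose from 2.84 and 3.04 FPKM to 10.2 and 8.19 FPKM (log2 fold change 1.49). The neutral amino acid transporter gene SLC1A5 rose from 83.2 and 75.6 FPKM to 139 FPKM in each shDUSP23 library. AHCY, the hydrolase of S-adenosylhomocysteine, fell from 88.9 FPKM in each shMock library to 46.0 and 43.3 FPKM (-0.99).

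In the list of glutathione synthesis, turnover and export 1 rose and 4 fell of 10 tested (5 and 3 with equal sums; median 0.06). LANCL1, which encodes a glutathione-binding protein, fell from 44.4 and 50.3 FPKM to 17.8 and 18.4 FPKM (log2 fold change -1.36). GGCT, the cyclotransferase that acts on gamma-glutamyl amino acids, fell from 37.9 and 37.7 FPKM to 18.9 and 18.4 FPKM (-0.999). The glutathione-degrading enzymes of the CHAC pair moved apart, CHAC2 falling from 9.08 and 8.29 to 2.97 and 4.97 FPKM and CHAC1 rising from 6.59 and 4.72 to 9.53 and 10.2 FPKM (0.77). CHAC2 was no longer called with GC content and length corrected for (limma adjusted p = 0.117), without shMock replicate 1 (0.0797) and without shMock replicate 2 (0.0634). CHAC1 lost its call under the same correction (0.0583) and without shMock replicate 2 (0.14).

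Among glutaredoxins and enzymes that handle glutathione adducts limma called 0 higher and 7 lower of 10 tested (2 and 4 with equal sums; median -0.49), the same as at an unadjusted p under 0.05, and limma-voom called 0 and 6. GSTP1, the pi-class glutathione transferase, fell from 296 and 314 FPKM to 118 and 152 FPKM (log2 fold change -1.18). GLRX, the cytosolic glutaredoxin, fell from 280.3 and 342 FPKM to 170 and 151 FPKM (-0.95). ESD, the S-formylglutathione hydrolase, fell from 64.8 and 79.6 FPKM to 42.9 and 39.2 FPKM (-0.80).

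Other peroxide enzymes gave 2 higher and 3 lower of 5 tested (2 and 2 with equal sums; median -0.48). SOD1, the cytosolic superoxide dismutase, fell from 157 and 185 FPKM to 72.4 and 71.2 FPKM (log2 fold change -1.24), and CAT, catalase, fell from 23.8 and 26.2 FPKM to 11.9 and 9.58 FPKM (-1.19). GPX3, the secreted glutathione peroxidase, rose from 6.25 and 4.52 FPKM to 11.8 and 11.7 FPKM (1.07), against the direction of GPX2. GPX8, another glutathione peroxidase gene of the list, is named beside it and not by the rule. It fell from 30.5 and 30.4 FPKM to 22.7 and 20.7 FPKM (-0.48, limma adjusted p = 0.0172). The call of GPX8 ended with equal sums (-0.15, adjusted p = 0.418) and with GC content and length corrected for (-0.01, adjusted p = 0.935).

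Of peroxiredoxins and sestrins 1 rose and 3 fell of 7 tested (2 and 3 with equal sums; median -0.19). With PRDX1, described above, fell PRDX3, the mitochondrial peroxiredoxin, from 208 and 267 FPKM to 109 and 109.6 FPKM (log2 fold change -1.11), and PRDX4, that of the endoplasmic reticulum, from 118 and 124 FPKM to 60.5 and 52.5 FPKM (-1.09). SESN2, a stress-induced sestrin gene, rose from 8.39 and 6.72 FPKM to 14.0 and 15.1 FPKM (0.91). PRDX5 and PRDX6, chosen after their values were seen, did not pass, at log2 fold changes of 0.09 and -0.19.

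The remaining partners of thioredoxin gave 2 higher and 2 lower of 13 tested (2 and 2 with equal sums; median -0.13). TXNDC9 and TXNDC17, which encode thioredoxin-like proteins, fell from 42.2 and 45.5 to 22.8 and 20.6 FPKM and from 139.7 and 175 to 97.3 and 90.5 FPKM. NXN, nucleoredoxin, rose from 8.59 and 6.65 FPKM to 13.2 and 13.1 FPKM (log2 fold change 0.76), a call that the GC and length correction ended (limma adjusted p = 0.0613) and without shMock replicate 2 (0.0937). The mitochondrial pair TXN2 and TXNRD2, also chosen after their values were seen, did not pass, at log2 fold changes of -0.25 and 0.13.

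Selenoproteins as a class were set beside the 4 selenoprotein members because only GPX2 of those 4 fell. Of 16 other selenoprotein genes tested 3 rose and 1 fell (5 and 1 with equal sums; median -0.09). SELENOM, an oxidoreductase of the endoplasmic reticulum, rose from 50.2 and 46.5 FPKM to 138 and 160.0 FPKM (log2 fold change 1.61), and SELENOF fell from 113 and 139.9 FPKM to 69.5 and 76.5 FPKM (-0.78), a call that the GC and length correction ended (limma adjusted p = 0.107). In the machinery that inserts selenocysteine limma called 1 higher and 0 lower of 7 tested (2 and 0 with equal sums; median 0.14), the same as at an unadjusted p under 0.05, and limma-voom called 2 and 1. The gene called higher was SEPHS2, itself a selenoprotein that makes the selenium donor, at 32.9 and 33.3 FPKM in shMock and 49.9 and 54.4 FPKM in shDUSP23 (0.65).

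NADPH feeds both glutathione reductase and thioredoxin reductase, and of 11 genes of its supply limma called 0 higher and 6 lower (1 and 5 with equal sums; median -0.60). The counts were the same at an unadjusted p under 0.05, and limma-voom called 0 and 5. IDH1, the cytosolic isocitrate dehydrogenase, fell from 185 and 190.1 FPKM to 73.8 and 74.2 FPKM (log2 fold change -1.33). PGD, the phosphogluconate dehydrogenase, fell from 314 and 304 FPKM to 149 and 153 FPKM (-1.03).

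The list of NRF2 and its control genes had 4 higher and 2 lower of 11 tested (6 and 1 with equal sums; median 0.16). NFE2L2, which encodes NRF2 and was named with KEAP1 for that role and not by the rule, was at 68.4 and 55.9 FPKM in shMock and at 57.4 and 53.3 FPKM in shDUSP23 and did not pass (log2 fold change -0.16, limma adjusted p = 0.363). KEAP1 was at 18.8 and 17.6 against 19.1 FPKM in each shDUSP23 library. The small MAF gene MAFF rose from 12.2 and 9.74 FPKM to 53.1 and 47.9 FPKM (2.16), and MAFG rose from 27.0 and 25.6 FPKM to 66.3 and 64.9 FPKM (1.30). BACH1, a repressor at the same response elements, rose from 11.8 and 10.01 FPKM to 28.1 and 23.7 FPKM (1.21). CUL3, the ubiquitin ligase scaffold that works with KEAP1, fell from 27.4 and 27.3 FPKM to 14.6 and 13.6 FPKM (-0.94).

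**Figure D5:**
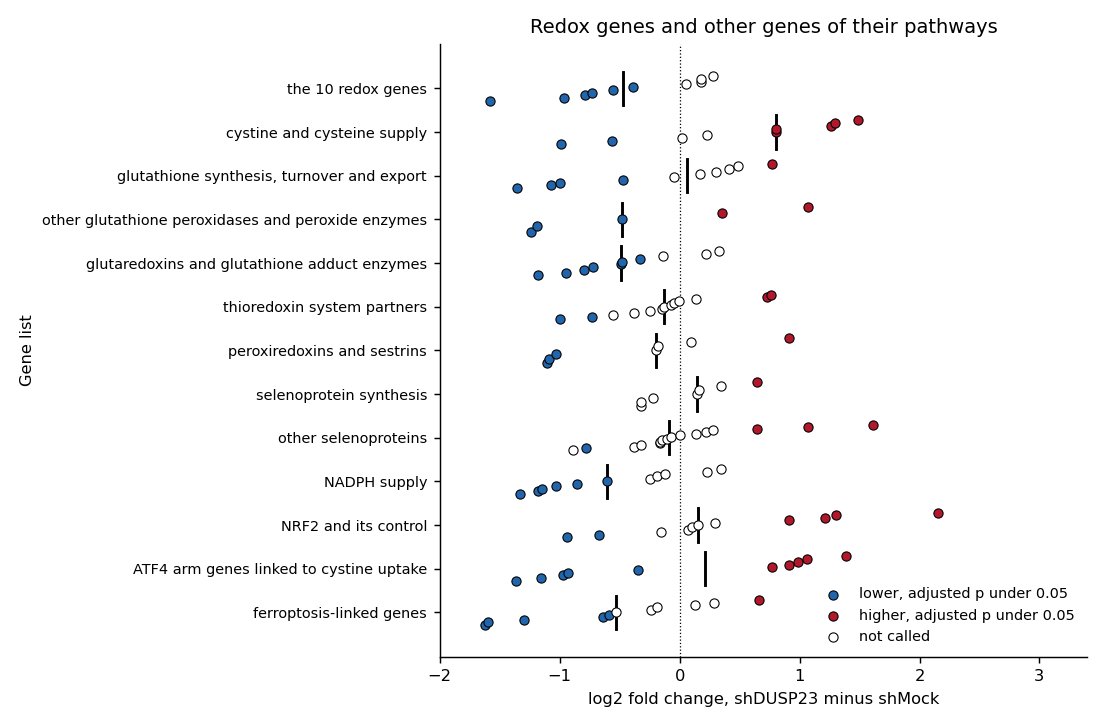
Log2 fold change, shDUSP23 minus shMock, of each tested gene in the 10 redox genes and in 12 lists of other genes of the pathways; blue points were called lower, red points higher, open points neither, and vertical bars are list medians. The redox genes have a median of -0.47 with 0 red points, and the cystine and cysteine supply list has a median of 0.80 with 5 red points.

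Over the 4 libraries the 5 genes whose centred log2 values lay nearest the mean profile of the 10 members were SRGN, ATRX, DENND10, TCP1 and PABPC4, among 9866 genes whose mean reached 5 FPKM. Their distances were 0.022 to 0.039 in log2 units, and their log2 fold changes lay between -0.45 and -0.40. They are named for nearness of values alone.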

How the data were processed

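RNA of 4 A549 libraries was sequenced. The values are FPKM per transcript as deposited by the authors, with STAR 2.7.1a, DESeq2 1.32.0 and GRCh38 named in the submitters' processing notes; which tool made the FPKM is not given in the sources used here, and library strand is not either. All transcripts of a gene were summed. Fragment totals were recovered from the steps between low FPKM values, using GENCODE release 29 lengths: in 2312 genes with 1 transcript, 91.1% to 93.4% of low values lay within 0.1 of a whole fragment, against 70.2% to 75.2% where transcripts shared reads, so the count model remained an alternative. The main test was limma 3.58.1 (R 4.3.3; empirical Bayes with trend) on log2(FPKM + 0.5) for genes whose mean reached 1 FPKM, without a replicate block, two-sided, with Benjamini-Hochberg adjustment over all genes tested. The test was run on simulated data with 200 changed genes and no shift of library scale or GC content. That run therefore does not cover the dependence on scaling described above. The log2(FPKM + 0.5) scale understates the change of low genes. Intervals of 95% are unadjusted.

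Of each pathway list the text names the 3 called genes of smallest p that reach 5 FPKM in a group mean, the called gene with the smallest p against the list's majority, and, of each member, transcripts with at least 10% of its total in any library; 1 gene that this rule names is not reported here. The members and lists were chosen with earlier results of these data known. Alternatives changed the pseudocount, filter, scaling (equal sums, median ratio, quantile), variance model, replicate block, correction for GC content and length, transcripts summed and libraries used, or used limma-voom on the recovered fragments. Promoter sequences are RefSeq's.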

Additional observations from a re-analysis of the deposited data

How the results depend on the processing

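DUSP23 and the redox genes GPX2, SLC7A11 and GCLC kept their direction and call under all 18 alternatives, and the number of redox genes called ranged from 5 to 8. SRXN1, never called lower, turned sign with median-ratio rescaling (-0.0098), correction for GC content and length (-0.16), that correction with the replicate block (-0.16), without shMock replicate 2 (-0.02) and without shDUSP23 replicate 2 (-0.0495), within a range of -0.0495 to 0.15 over the libraries left out. The count of redox transcripts called was least stable, and the share of all tested transcripts called also moved. That share was 4.15% as reported, 25.6% with a mean of at least 5 FPKM, 0.822% with no filter and 1.98% with equal sums. Without the trend, and with the replicate block with or without the GC and length correction, 0 of all transcripts were called. The count of redox transcripts was 2 as reported and 4 with a mean of at least 5 FPKM. It was 1 with a pseudocount of 0.1 FPKM, with quantile normalization and with the GC and length correction. It was 0 with no filter, equal sums, no trend, the replicate block with or without the GC and length correction, and with any library left out (range 0 to 0). Of all genes, 3935 were called without shMock replicate 1 and 3258 without shMock replicate 2, against 6202 with all libraries, and the range over all 4 libraries left out was 3258 to 6391. The cause of these moves was not tested.

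With the replicate block 6 redox genes and 6707 of all genes were called. Both groups carry the same replicate numbers and library codes that end alike, and the labels do not say whether these mark pairs. The replicate differences of the 2 groups had a Pearson correlation of 0.05 and a Spearman correlation of 0.09 across 13691 genes. Genes are not independent replicates, each group gives a single difference, and there would be only 2 pairs. These values therefore cannot decide whether the libraries were paired. The block ended no call of a redox gene. A left-out library leaves 1 in its group, which is then assumed to vary like the other group. With 2 libraries a group no exact test of a single value can go below 0.333.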

Other observations

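Of 11 tested genes linked to ferroptosis, iron-driven death by lipid peroxidation that GPX4 and SLC7A11 hold back, 1 rose and 5 fell (3 and 3 with equal sums; median log2 fold change -0.53). SLC40A1, the iron exporter ferroportin, fell from 11.8 and 14.1 FPKM to 3.59 and 4.12 FPKM (log2 fold change -1.63). FTL, the ferritin light chain that stores iron, fell from 2973 and 3817 FPKM to 1185 and 1591 FPKM (-1.29). NCOA4, the receptor that sends ferritin to autophagy, fell from 91.3 and 99.8 FPKM to 65.2 and 61.3 FPKM (-0.59), a call that ended with equal sums (limma adjusted p = 0.109). AIFM2, which encodes the ubiquinone reductase FSP1, rose from 23.3 and 19.6 FPKM to 32.4 and 35.6 FPKM (0.66), a call that ended without shMock replicate 2 (adjusted p = 0.0662).

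SLC7A11 is also a target of ATF4, the transcription factor of the integrated stress response. Of 10 tested genes of that arm, ATF4 included, 5 rose and 5 fell (5 and 3 with equal sums; median 0.21). ATF4, named for that role and not by the rule, fell from 204 and 219 FPKM to 162 and 169 FPKM (-0.35, limma adjusted p = 0.0322). Its call ended with equal sums (-0.01, adjusted p = 0.93). DDIT3, a stress-induced transcription factor gene, rose from 75.5 and 61.9 FPKM to 197 and 163 FPKM (log2 fold change 1.38), and TRIB3 rose from 94.8 and 88.7 FPKM to 177 and 187 FPKM (0.98). PSAT1, an enzyme of serine synthesis, fell from 82.9 and 83.1 FPKM to 33.3 and 30.7 FPKM (-1.36).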
